A study of Mus musculus with 576 samples.

Results

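Kit encodes the cell surface receptor of stem cell factor, and the cells described here are those of a 3-day erythroid culture, divided by whether their libraries held a Kit count. Most but not all were erythroid by their genes, as described below. The plate of control day 3 gave 93 cells that passed the filters on counts, genes and mitochondrial share, of 563 kept in the whole series. Of these 93 cells, 45 held at least 1 Kit count and 48 held none. The classes were selected on the Kit counts, and every other gene was read from the libraries that gave those counts. All differences between the classes are therefore given as descriptions, with no test, and Kit itself is left out of every other value.

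The study followed cells from the liver of mouse embryos of the C57/Bl6J strain at embryonic day 14.5. Lineage-positive cells were depleted with antibodies, and the rest was stained for CD117 (the Kit protein), CD71 (the transferrin receptor, Tfrc) and CD24 and sorted to enrich burst forming unit-erythroid cells (BFU-E), early committed red cell progenitors. The culture medium of every group held erythropoietin (2 U/mL), insulin-like growth factor 1 (40 ng/mL) and stem cell factor (100 ng/mL). Cells stayed in it for 24, 48 or 72 hours, without (control) or with 100 nM of dexamethasone, a synthetic glucocorticoid. Polyadenylated RNA of single cells was sequenced on 6 plates of 96 wells, 1 plate per day and treatment. The control day 3 cells had 72 hours of culture and no dexamethasone. A single plate was made of them, and how many litters or cultures fed it is not given in the sources used here.

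Kit signals through a kinase in its cytoplasmic part, and with erythropoietin it drives the expansion of early erythroid progenitors. Progenitors lose Kit from their surface as they mature, while they build up haemoglobin, heme enzymes and the red cell membrane and later shrink and clear their organelles. Kit is not an erythroid gene alone: granulocyte and monocyte progenitors and mast cells carry it too.

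The Kit counts of the 93 cells fell into separate ranges. A count of 0 was seen in 48 cells, a count of 1 in 14, a count of 2 in 6 and a count of 3 in 1 cell. No cell lay between 3 and 18, and the remaining 24 cells held 18 to 801 counts, with a median of 200.5. The 21 cells with 1 to 3 counts are called Kit-low and the 24 cells with at least 18 counts Kit-high. In CPM, the counts scaled by the total gene counts of the cell, Kit-low cells lay between 0.514 and 2.68 and Kit-high cells between 12.5 and 486. The threshold of 1 count thus ran between cells with 0 and cells with 1 Kit read. Kit-low cells may differ from cells at 0 by a single read, since the files give no molecular identifiers and amplified copies are counted again.

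Depth differed between the classes. Cells with a Kit count held 746916 to 2380072 gene counts (median 1335220) and cells without one 66140 to 1834355 (median 1110500). The median Kit-low cell had 1164340 counts and 6970 genes, and the median Kit-high cell 1514620 counts and 7910 genes. Thinned to 500000 counts per cell, which left out 2 cells without Kit, the median number of genes was 6554 with a Kit count and 5226.5 without. A gap in genes per cell thus remained at equal depth. The share of cells with a Kit count was 48.4% (exact Clopper-Pearson 95% interval 37.9% to 58.99%), and after thinning 38 of 91 cells, or 41.8% (31.5% to 52.6%). These intervals cover counting error only. The share of Kit-high cells was 25.8% (17.3% to 35.9%) before thinning, and all 24 kept at least 1 Kit count after it. Mitochondrially encoded counts took a median of 3.50% with Kit and 3.20% without.

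**Figure D1:**
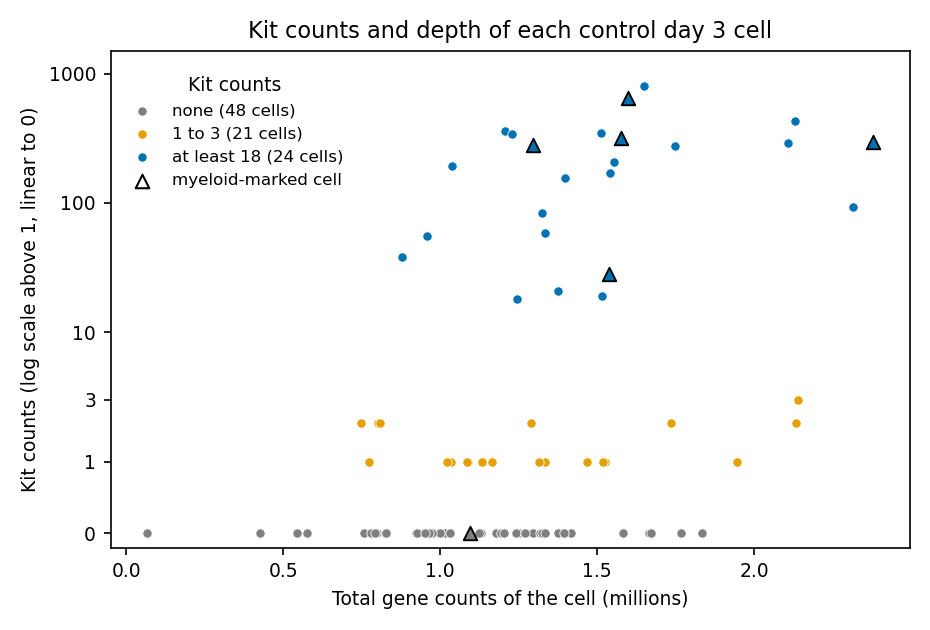
Kit counts of each of the 93 control day 3 cells (y axis, log scale above 1) against its total gene counts (x axis); grey, orange and blue points are cells with 0, 1 to 3 and at least 18 Kit counts, and triangles are cells with neutrophil or monocyte genes. No cell lies between 3 and 18 Kit counts, and cells of each class span overlapping depths.

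A background level for such low counts can be read from other genes. In the 6 cells marked by neutrophil or monocyte genes, described below, the adult beta globin gene Hbb-bs stood at 42.02 to 86.4 CPM, or 0.469% to 0.964% of its level over the plate. The same shares of the plate's 47.6 CPM of Kit would be 0.223 to 0.459 CPM. The Kit-low cells lay at 0.514 CPM or more, with a median of 0.920. They held at most 2141069 counts, and at such depth a single read already exceeds that range. The comparison therefore cannot tell Kit-low cells from background. Whether their Kit reads came from the cell itself was not tested. For that reason Kit-low and Kit-high cells are given apart below.

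The Kit gene is protein coding and lies on chromosome 5 of GRCm38, at chr5:75574916-75656722 on the plus strand. Its start region is shown with those of Alas2 and Hbb-bs, the heme enzyme and the globin described next. Each window, from RefSeq (GRCm38.p6), runs 250 bases before to 50 bases after the gene start, 5′ to 3′ on the gene's strand. Capitals mark matches, on either strand, to AGATAA (a form of the motif bound by GATA factors), CACCC (the core of the box bound by KLF factors) and CACGTG (the E-box bound by MYC and USF factors). Windows are chr5:75574737-75575036 (plus strand), chrX:150547167-150547466 (plus strand) and chr7:103827879-103828178 (minus strand).
Kit: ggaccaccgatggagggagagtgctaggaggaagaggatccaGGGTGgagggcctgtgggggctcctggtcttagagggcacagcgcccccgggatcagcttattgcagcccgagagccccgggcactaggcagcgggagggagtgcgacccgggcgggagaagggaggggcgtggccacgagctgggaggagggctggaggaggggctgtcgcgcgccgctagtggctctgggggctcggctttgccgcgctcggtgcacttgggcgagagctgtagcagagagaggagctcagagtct
Alas2: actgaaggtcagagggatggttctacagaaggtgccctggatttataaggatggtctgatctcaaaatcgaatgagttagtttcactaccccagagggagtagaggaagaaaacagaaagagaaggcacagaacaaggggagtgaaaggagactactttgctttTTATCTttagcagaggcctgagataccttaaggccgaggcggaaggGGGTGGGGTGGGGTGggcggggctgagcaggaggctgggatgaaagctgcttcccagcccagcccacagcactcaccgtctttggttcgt
Hbb-bs: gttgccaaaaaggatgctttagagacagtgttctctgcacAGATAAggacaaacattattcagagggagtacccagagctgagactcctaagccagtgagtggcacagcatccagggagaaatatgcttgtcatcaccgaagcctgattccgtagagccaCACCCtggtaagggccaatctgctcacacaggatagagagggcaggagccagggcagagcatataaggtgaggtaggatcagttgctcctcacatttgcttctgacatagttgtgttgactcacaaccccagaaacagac
The Alas2 window held 1 match to AGATAA and 3 to CACCC, the Hbb-bs window 1 of each, and the Kit window 1 match to CACCC. None of the 3 windows held CACGTG. Of 27025 RefSeq windows of this length, 11.4% held AGATAA, 56.7% CACCC and 7.24% CACGTG. A match describes the letters and is not evidence of binding.

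Not every cell with Kit was erythroid by its genes. In 6 of the 93 cells, at least 3 neutrophil or monocyte genes stood at 100 CPM or more. They held 0, 28, 281, 295, 315 and 651 Kit counts, so that 5 of the 24 Kit-high cells were among them. The cell with 28 Kit counts also held mast cell and basophil genes, as given with the other markers below. Mpo, the peroxidase of neutrophil granules, lay between 62.9 and 27475 CPM (median 10575) in these 6 cells. Gata1 and Klf1, erythroid transcription factors, had medians of 2.64 and 3.59 CPM there, against 547 and 576 CPM over the plate. Epor, the erythropoietin receptor, was at a median of 0.642 CPM. In the 19 other Kit-high cells Klf1 lay between 234.9 and 593 CPM and Gata1 between 193 and 897 CPM, and Mpo reached at most 17.7 CPM. The highest values in the 6 marked cells were 95.5 CPM for Gata1 and 16.9 CPM for Klf1, both below the lowest of the 19 cells. Values without the marked cells are given where they alter a result, and ratios of single genes and lists for Kit-high cells without them are to all 48 cells without Kit. Only in the closing section on processing are they to the 47 cells without Kit that were not marked.

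Against cells without Kit, 779 of 6594 genes compared (11.8%) were at least 2-fold higher in the summed counts of cells with Kit, and 469 (7.11%) at least 2-fold lower. A gene was compared where the mean of its CPM in both classes was at least 20, and 0.5 CPM was added to each before the log2 ratio. The median log2 ratio of all compared genes was 0.20, with 61.6% of them above 0. With the trimmed mean of M values (TMM) in place of total counts the median was -0.03 and the split turned to 467 higher and 740 lower. Kit-high cells against cells without Kit gave 1302 of 6700 genes higher (19.4%) and 782 lower (11.7%). Kit-low cells gave 452 of 6360 genes higher (7.11%) and 347 lower (5.46%). Leaving out the 6 marked cells gave 700 higher and 436 lower for all cells with Kit, and 1171 and 773 for Kit-high cells. Counts of list members below are to be read beside the shares of all compared genes given here.

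Genes of the finished red cell were lower in cells with Kit, most of all in Kit-high cells. Hbb-bs summed to 5203 CPM with Kit and 13478.5 CPM without, a log2 ratio of -1.37. Per cell it ran from 61.1 to 45310 CPM (median 11371) without Kit, from 3468 to 42596 (median 8020) in Kit-low cells and from 333 to 8963 (median 2458) in the 19 erythroid Kit-high cells. The ranges overlapped, but the highest Kit-high cell lay below the median cell without Kit. All 4 compared members of the globin list, Hbb-bs, Hbb-bt, Hba-a1 and Hba-a2, were at least 2-fold lower, with a list median of -1.75. Hba-a1, an alpha globin gene, was at 2044.6 CPM with and 6349 CPM without Kit. The alpha genes are near-identical copies, as are the beta genes, so that reads of one copy may have been given to the other or dropped.

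Heme synthesis showed the same direction in nearly the whole pathway, with Alas1 and Alas2 at its first step in opposite directions. Of 14 members, 8 were at least 2-fold lower and 1 at least 2-fold higher, with a median of -1.15. Alas2, the erythroid form of the first and rate-limiting enzyme, stood at 814 CPM with and 3286 CPM without Kit (log2 ratio -2.01). Per cell Alas2 ran from 20.98 to 16847 CPM (median 2306) without Kit, from 14.4 to 13097 (median 871) in Kit-low cells and from 2.57 to 1513 (median 17.96) in Kit-high cells. Alas1, the housekeeping form of the same enzyme, went the other way, at 97.6 CPM with and 11.4 CPM without Kit (log2 ratio 3.04). At least 10 CPM of Alas1 was seen in 17 of 24 Kit-high cells, 5 of 21 Kit-low cells and 9 of 48 cells without Kit. Its ratio for Kit-high cells without the marked ones was 2.45. In the sums of those cells Alas2 was still above Alas1, at 208 and 64.8 CPM. The later enzymes Uros (-1.23), Urod (-1.21), Ppox (-1.62) and Fech (-1.47), which build and close the porphyrin ring and insert its iron, were all lower with Kit. Slc25a37, the mitochondrial iron importer mitoferrin, was at 617 CPM with and 2237 CPM without Kit (-1.86), while Tfrc differed less (4121 and 6013 CPM, -0.55).

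The anion exchanger Slc4a1 (band 3) differed between the classes by more than the 4 globin genes compared. It summed to 1209.6 CPM with Kit and 5693 CPM without (log2 ratio -2.23). Per cell it ran from 22.2 to 17532 CPM (median 5909) without Kit and from 38.8 to 14309 CPM (median 1929) in Kit-low cells. In Kit-high cells it stayed between 9.52 and 412 CPM (median 31.2). For the 19 Kit-high cells without the marked ones the ratio to cells without Kit was -6.24, and for Kit-low cells -1.05. Of the 17 membrane skeleton genes 7 were at least 2-fold lower and none higher, with a median of -0.95, among them protein 4.2 (Epb42, -1.33), ankyrin (Ank1, -1.22) and dematin (Dmtn, -1.36). The beta spectrin gene Sptb (-0.96) was just short of that fold. Of 16 surface antigens, channels and carbonic anhydrases 4 were at least 2-fold lower, including the Rhesus antigen Rhd (-1.48) and the Kell antigen Kel (-1.35).

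**Figure D2:**
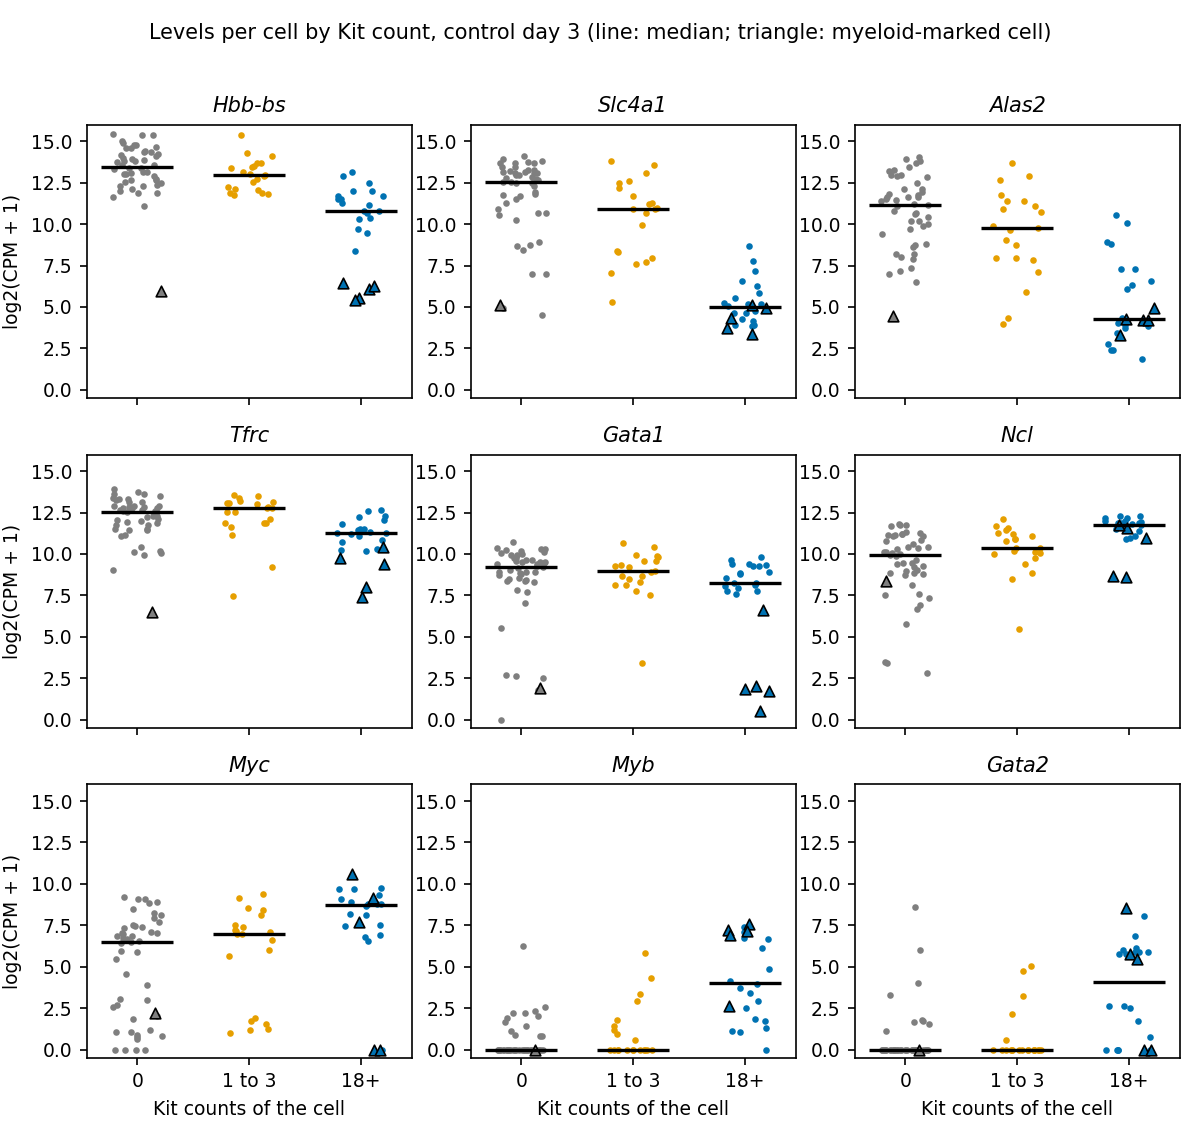
log2(CPM + 1) of 9 genes in each control day 3 cell (points) by Kit count class (x axis), with the class median as a line and cells with neutrophil or monocyte genes as triangles. Slc4a1 and Alas2 step down from the cells without Kit (medians 5909 and 2306 CPM) to the Kit-high cells (31.2 and 17.96 CPM), Ncl steps up, and the cells of the 3 classes overlap in Gata1.

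Late maturation genes, which act in the last divisions and in organelle clearance, were lower with Kit as a whole list. All 22 compared members had a ratio below 0, 20 of them at least 2-fold, with a median of -1.60. For Kit-high cells without the marked ones the median was -2.49 with all 22 at least 2-fold lower, and for Kit-low cells -0.98 with 9 at least 2-fold lower. Trim10, an erythroid ubiquitin ligase, was at 244.5 CPM with and 1178 CPM without Kit (-2.27). Its per-cell median was 702 CPM without Kit, 594 in Kit-low cells and 7.48 in Kit-high cells. Prdx2, a peroxide scavenger abundant in red cells, was at 2348 and 5102 CPM (-1.12). Some sums in this list rested on few cells: 90.3% of the Tmcc2 reads with Kit came from 1 cell, and Xpo7, an exportin needed for nuclear condensation, had 29.9% of its reads without Kit in 1 cell. The median Xpo7 level per cell was 61.4 CPM in Kit-high cells and 12.2 CPM without Kit, against the direction of its sums (-3.13).

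Regulators of the erythroid programme differed much less than its products. Of 15 core erythroid transcription factors, 3 were at least 2-fold lower and none higher, with a median of -0.33. In Kit-high cells 6 were at least 2-fold lower, with a median of -0.62, and without the marked ones 4, with -0.51. In Kit-low cells none was, with a median of -0.06. Of all compared genes 11.7% were at least 2-fold lower in Kit-high cells. Gata1 was at 462 CPM with and 649 CPM without Kit (-0.49), and Klf1 at 471 and 703 CPM (-0.58). Without the marked cells, Gata1 in Kit-high cells summed to 456 CPM. The 3 members lower in all cells with Kit were Nfe2 (-1.27), which acts late at globin and heme genes, the cell cycle regulator E2f2 (-1.39) and Sox6 (-1.26), a silencer of embryonic globin. Gfi1b, a repressor of progenitor genes, was at 293.7 CPM in both classes.

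The receptor of erythropoietin, which signals beside Kit, differed little in its sums, and genes of its list were split. Epor was at 224 CPM with and 256 CPM without Kit (-0.19), and at 219 CPM in Kit-high cells without the marked ones. Cish, a STAT5-induced inhibitor of cytokine signalling, was at 164 and 444 CPM (-1.43), with per-cell medians of 274 CPM without Kit, 211 in Kit-low and 35.8 in Kit-high cells. Pim1, a survival kinase, was at 86.5 and 186 CPM (-1.10). Bcl2l1, the survival protein of maturing erythroid cells, was at 168 and 593 CPM (-1.82), with 50.2% of the reads with Kit from 1 cell. Per cell its median was 204 CPM without Kit and 33.1 CPM in Kit-high cells. Of 9 compared genes of this list 4 were at least 2-fold lower and none higher, while 3 had a ratio above 0. In Kit-low cells the list had a median of 0.12, with none at least 2-fold lower and 5 of 9 above 0. Read cell by cell, as the mean log2(CPM + 1) over the list's members, the median of this list was higher by 0.25 with Kit, and by 0.38 in Kit-high cells without the marked ones. Such a score counts a member without reads as 0, and cells with Kit held more genes at equal depth. That limit applies to every such score below.

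Genes downstream of the Kit receptor gave opposite directions in the sums and in single cells. Of 14 compared members, 2 were at least 2-fold higher and 2 at least 2-fold lower, with a median of -0.25 in the sums. Among all compared genes 11.8% were higher and 7.11% lower by that fold. Counts this small do not set the list apart from all genes. The mean log2(CPM + 1) over the list's members had a median of 2.24 in cells with Kit and 1.86 in cells without. That difference of 0.38 was 0.36 after thinning, and 0.60 for Kit-high cells without the marked ones. Scores were also higher with Kit for p53 targets (0.29), the BCL2 family (0.25) and G2 and M genes (0.41), among others. They were lower for globins, heme synthesis, late maturation, core erythroid factors and red cell membrane and surface genes. How much of the 0.38 came from the number of genes detected was not tested. Cbl, a ubiquitin ligase that turns activated Kit over, was at 75.9 CPM with and 35.1 CPM without Kit (1.10). At least 10 CPM of Cbl was seen in 18 of 24 Kit-high, 7 of 21 Kit-low and 8 of 48 cells without Kit. Ptpn6, a phosphatase of blood cells, was higher in the sums (1.499), but by 0.13 only in Kit-high cells without the marked ones. The adaptors Grb2 (0.61) and Gab2 (0.63) were below 2-fold. The kinase subunits Pik3r1 (-1.65) and Pik3ca (-1.64) were lower with Kit.

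Early progenitor genes split. Of 10 compared members 4 were at least 2-fold higher and 1 lower, with a median of 0.19 against 0.20 for all genes, and of -0.33 without cells with markers of any other type. That last setting left out 20 of 24 Kit-high and 9 of 21 Kit-low cells. Myb, which keeps progenitors dividing, stood at 38.9 CPM with and 2.04 CPM without Kit (3.96). At least 10 CPM of Myb was seen in 14 of 24 Kit-high cells, 2 of 21 Kit-low cells and 1 of 48 cells without Kit. Without the marked cells Myb in Kit-high cells summed to 47.2 CPM (4.23). Myc was at 329 and 134 CPM (1.29), with per-cell medians of 423 CPM in Kit-high, 123 in Kit-low and 88.05 in cells without Kit. Gata2, the progenitor partner of Gata1, was under the mean of 20 CPM, at 29.05 CPM with and 4.62 CPM without Kit, and 12 of 24 Kit-high, 2 of 21 Kit-low and 3 of 48 cells without Kit held at least 10 CPM. Cd34, a stem and progenitor antigen, was higher in the sums (2.32) through the marked cells: the 19 other Kit-high cells summed to 0.14 CPM. The 1 member at least 2-fold lower, Csf2rb (-1.55), had 38.6% of its reads with Kit in 1 cell.

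Genes of ribosome production were higher with Kit as a whole list. Of 24 compared members of the MYC and ribosome biogenesis list 23 had a ratio above 0 and 15 were at least 2-fold higher, with a median of 1.06. Nucleolin (Ncl) stood at 2633 CPM with and 1316 CPM without Kit (1.00). Per cell Ncl ran from 6.17 to 3536 CPM (median 962) without Kit, from 43.3 to 4460 (median 1317) in Kit-low cells and from 1886 to 5079 (median 3702) in Kit-high cells without the marked ones. Nucleophosmin (Npm1) was at 3062 and 1506 CPM (1.02). Nolc1, a nucleolar chaperone, was at 528 and 199 CPM (1.40), and Rrp9, which works on ribosomal RNA, at 134 and 36.9 CPM (1.84). The exception was Odc1, the polyamine enzyme and a classical MYC target, at 96.5 and 129 CPM (-0.41). With TMM these ratios shift down by about 0.23.

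The list can also be read cell by cell, as the mean log2(CPM + 1) over its members. The ribosome score had a median of 4.35 without Kit (1.18 to 8.31), 6.35 in Kit-low cells (2.53 to 8.04) and 8.05 in Kit-high cells without the marked ones (6.002 to 8.447). The late maturation score ran the other way, with medians of 6.02, 5.60 and 4.56. Thinning to 500000 counts moved the difference in ribosome score between cells with and without Kit from 2.72 to 2.61, and that in late maturation from -1.18 to -1.22. Kit-low cells lay between the other classes in both medians.

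**Figure D3:**
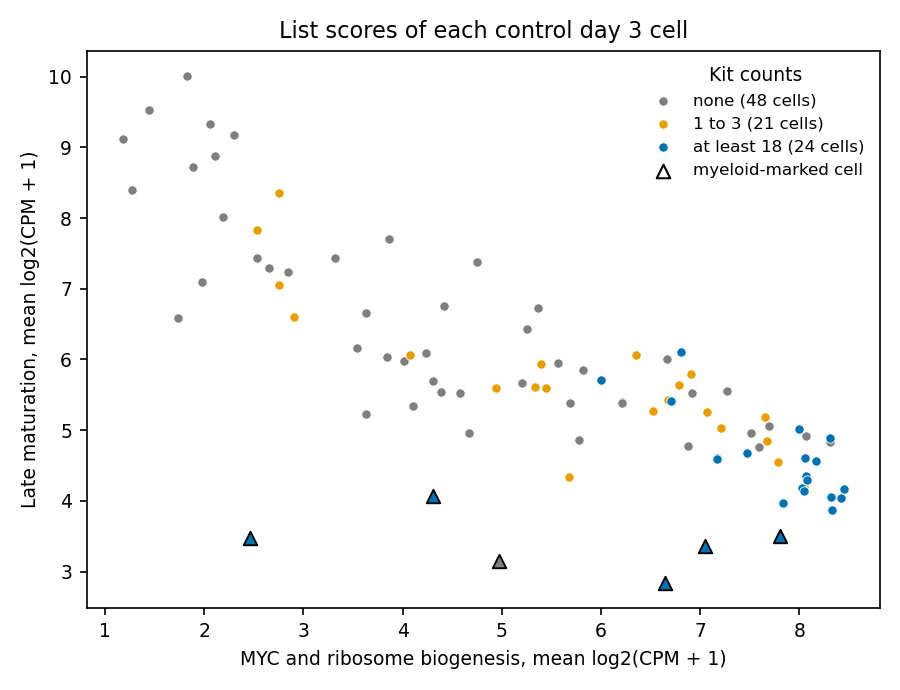
Late maturation score (y axis) against ribosome biogenesis score (x axis), each the mean log2(CPM + 1) of its list, for the 93 control day 3 cells by Kit class, with triangles for cells with neutrophil or monocyte genes. Kit-high cells without that mark lie at ribosome scores of 6.002 to 8.447, cells without Kit spread from 1.18 to 8.31, and Kit-low cells lie among both.

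Of 16 compared members of the glycolysis list 12 had a ratio above 0, beside 61.6% of all compared genes. In this list 4 were at least 2-fold higher and 2 lower, beside 11.8% and 7.11% of all compared genes, with a median of 0.61. Ldha, which makes lactate, was at 2076 and 855 CPM (1.28), with per-cell medians of 2570 CPM in Kit-high, 1119 in Kit-low and 318 in cells without Kit. Gpi1 (1.24) and Pgam1 (1.56), enzymes of the pathway, were at least 2-fold higher. The glucose transporter Slc2a1, which red cells carry, was at 128 CPM with and 948 CPM without Kit (-2.88). Of its reads with Kit, 65.01% came from 1 cell.

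Cell cycle lists differed little in the sums of all cells with Kit, but Kit-high and Kit-low cells differed in the G2 and M list. The 39 S phase genes had a median of 0.08, with 3 at least 2-fold higher, namely Cdca7 (1.63), Hells (1.01) and Exo1 (1.49). The 47 genes of G2 and M phase had a median of -0.14, with 2 at least 2-fold higher and 2 lower. The sums hid a difference in the distribution of cells. An S phase score under 4.78, the tenth percentile of all kept cells of the series and a limit chosen after the scores were seen, was found in 19 of 48 cells without Kit (39.6%, exact Clopper-Pearson interval 25.8% to 54.7%). It was found in 4 of 21 Kit-low cells and in 0 of 24 Kit-high cells. A share of 12.5% would be 3 of 24 cells, and the exact upper bound for 0 of 24 was 14.2%. Within 0.5 of that limit lay 6 cells without Kit and 1 with Kit. The 19 cells held a median of 927542 counts and 5046 genes, against 1203730 counts and 6740 genes in the other 29 cells without Kit.

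Those 19 cells, 1 of them marked by neutrophil or monocyte genes, carried much of the late programme. Hbb-bs summed to 23490.2 CPM in them and to 8655 CPM in the other 29 cells without Kit, and Alas2 to 7233 and 1385 CPM. Slc2a1 was at 2788 against 61.5 CPM and Bpgm, which makes the red cell metabolite 2,3-bisphosphoglycerate, at 1311 against 66.8 CPM. Ncl went the other way, at 450 against 1733 CPM. Cells without Kit therefore held a wide range of states, and several of the lowest ratios below came largely from these 19.

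Genes of the p53 response and the inhibitors of cyclin-dependent kinases were mixed. Of 15 compared members 7 were at least 2-fold lower with Kit and 1 higher, with a median of -0.94. Without cells with markers of any other type, which took out 20 of 24 Kit-high and 9 of 21 Kit-low cells, the median was -0.24. The ratio of Cdkn1a was then 0.046. Cell by cell the list's mean log2(CPM + 1) was higher with Kit, by 0.29 in all cells with Kit, 0.54 in Kit-low cells and 0.093 in Kit-high cells without the marked ones. The limit on such scores given above applies here too. Cdkn1a (p21) was at 411 and 789 CPM (-0.94), and its per-cell medians were 330 CPM without Kit, 513 in Kit-low and 191 in Kit-high cells. Btg2, an antiproliferative gene, was at 224 and 594 CPM (-1.40), and Cdkn1b (p27) at 20.8 and 59.1 CPM (-1.48). Zmat3 (0.97) and Bax (0.33), both p53 targets, were not among the lower ones. In the BCL2 family 1 of 6 members was at least 2-fold lower, Bcl2l1, and 1 higher, Pmaip1 (1.25), whose per-cell median was 0 in every class. Of all compared genes 7.11% were lower and 11.8% higher by that fold.

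**Figure D4:**
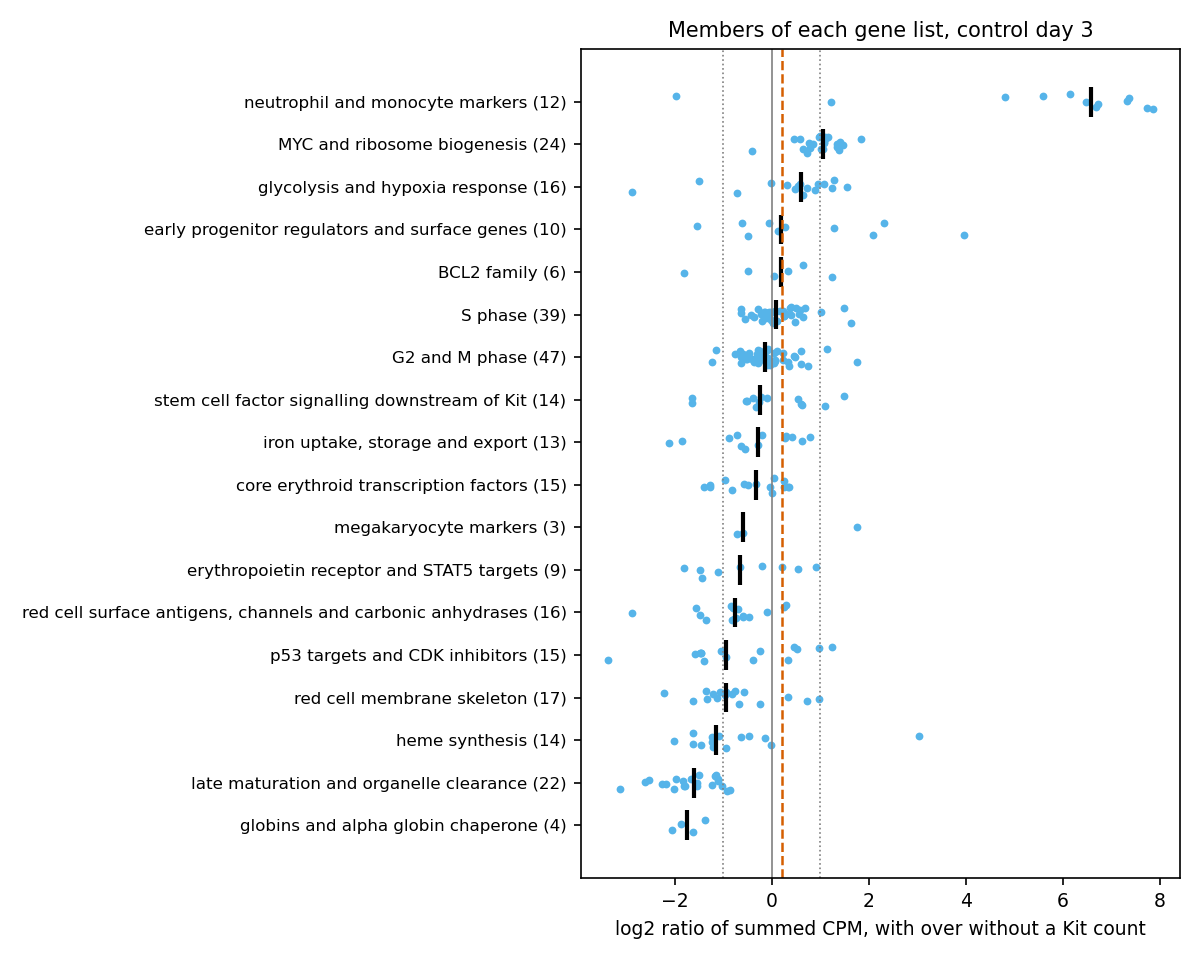
log2 ratio of summed CPM of cells with over cells without a Kit count (x axis) for each compared member (points) of the lists with at least 3 such members, with the list median as a black bar, the number of members in brackets, the 2-fold limits dotted and the median of all genes (0.20) dashed. Globins (-1.75) and late maturation (-1.60) lie at the low end, MYC and ribosome biogenesis (1.06) at the high end, and the neutrophil and monocyte list (6.59) was raised by the marked cells.

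Markers of other cells were counted beside these results. The neutrophil and monocyte list summed to 3698 CPM with Kit and 218.5 CPM without, with 1 of its 17 members at 0 in each class. Per cell its sum had a median of 8.7 CPM with and 9.9 CPM without Kit, and its 12 compared genes had a median ratio of 6.59, which became -1.04 for Kit-high cells without the marked ones. Mast cell and basophil genes summed to 100.4 and 2.9 CPM, with 88.4% of the Hdc reads with Kit in 1 cell, and 9 and 7 of 13 members at 0. That cell, with 28 Kit counts, was among the 6 marked by neutrophil or monocyte genes. It held Hdc at 1470 CPM, Ms4a2 at 1134 CPM, Gata2 at 370 CPM and Gata1 at 95.5 CPM. By these genes it may be a mast cell or basophil, and its type was not tested. Macrophage genes summed to 9.9 and 25.1 CPM with 8 of 13 at 0 in each class, lymphoid genes to 21.1 and 0.2 CPM with 12 of 15 at 0, and hepatocyte and endothelial genes to 28.6 and 16.6 CPM with 10 and 11 of 15 at 0. Megakaryocyte genes, some of which erythroid progenitors share, summed to 203.1 and 199.3 CPM. Leaving out every cell with markers of another type took out 20 of 24 Kit-high and 9 of 21 Kit-low cells. Megakaryocyte genes marked 16 of those 24 and 9 of those 21 cells, and the cells with Kit that remained were mostly Kit-low. Among the 16 cells with and 27 without Kit that were left, the ratio was -0.74 for Hbb-bs, -1.13 for Alas2 and -1.43 for Slc4a1. The list medians were then -1.06 for globins, -1.11 for late maturation, -0.72 for heme synthesis and 0.95 for MYC and ribosome biogenesis.

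The 12 genes with the highest ratios included surface and signalling genes of blood cells. Ubash3a, a phosphatase that restrains receptor signals in T cells, stood at 54.4 CPM with and 0.23 CPM without Kit (6.24). At least 10 CPM of it was seen in 11 of 24 Kit-high cells, 5 of 21 Kit-low cells and 0 of 48 cells without Kit, whose highest value was 3.68 CPM. Icam2, an adhesion molecule, followed at 42.95 and 0.30 CPM (5.76), with 12, 5 and 1 cells at 10 CPM or more. Gja1, the gap junction protein connexin 43, was at 67.5 and 3.53 CPM (4.08), with 13, 7 and 4 such cells. These 3 genes were thus found in some Kit-low cells too, at up to 251.5, 159 and 330 CPM. The others were Cst7 (4.02), Myb, Wrb (3.83), Srd5a3 (3.22), Parvg (3.22), Cmtm7 (3.22), Alas1, Elovl5 (2.95) and Tmem206 (2.95). Without the marked cells, in Kit-high cells, Cst7 was at 2.73 and Cmtm7 at 1.84, so that these ratios rested in part on them.

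The 12 genes with the lowest ratios were Vwa5a (-4.57), Tcp11l2 (-4.27), Lgmn (-4.10), Gfap (-3.76), Slfn14 (-3.56), Snx22 (-3.39), Samd11 (-3.12), Slc2a1 (-2.88), Ypel4 (-2.84), Zrsr1 (-2.77), Apol8 (-2.75) and Fbxl20 (-2.65). Most were present in a part of the cells without Kit. Tcp11l2 summed to 428 CPM there and 21.8 CPM with Kit, but its median cell without Kit held 3.49 CPM, and 17 of 48 such cells held 10 CPM or more, up to 4032 CPM. No Kit-high cell and 3 Kit-low cells did so. Vwa5a reached 10 CPM in 18 cells without Kit, 2 Kit-low cells and 1 Kit-high cell. Lgmn, a lysosomal protease, did so in 16, 3 and 1 cells. In the cells with a low S phase score Tcp11l2 was at 1280 CPM and Vwa5a at 891 CPM, against 18.3 and 26.5 CPM in the other cells without Kit. Ypel4 was more widely spread, at 10 CPM or more in 35 of 48 cells without Kit, 11 of 21 Kit-low and 3 of 24 Kit-high cells.

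The same split could be made on plates that did not choose the classes. On control day 2, 75 cells had a Kit count and 21 had none, and on dexamethasone day 3, 89 and 5. The other plates held 3 cells or fewer without Kit. Depth differed between the classes there too, with medians of 1134200 counts with and 679257 without Kit on control day 2 and of 1103680 and 732545 on dexamethasone day 3. Of the 779 genes at least 2-fold higher on control day 3, 658 (84.5%) had a ratio above 0 on control day 2, where 57.9% of all 6594 genes did, and 597 (76.6%) on dexamethasone day 3, where 59.98% of all did. Of the 469 lower genes 342 (72.9%) and 364 (77.6%) had a ratio below 0, on plates where 57.9% and 59.98% of all 6594 genes were above 0. The medians over all 6594 genes were 0.13 and 0.23. Hbb-bs was at -1.38 and -1.72, Alas2 at -1.53 and -3.00, Slc4a1 at -1.86 and -2.99, Ncl at 0.98 and 1.10 and Myb at 3.42 and 4.87 on those plates. All 12 highest genes had a ratio above 0 on both. Of the 12 lowest, 6 were below 0 on control day 2, where 57.9% of all genes were above 0, and 11 on dexamethasone day 3. Tcp11l2 (1.45) and Lgmn (1.03) among them were above 0 on control day 2, a difference from day 3 that was not tested. On control day 1, with 3 cells without Kit, 541 (69.4%) of the 779 genes were above 0, where 53.6% of all were. Of the 469 genes 270 (57.6%) were below 0 there, beside 53.6% of all genes above 0. The signs of day 3 held for 11 of the 12 highest and 4 of the 12 lowest genes on that plate.

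A test across these plates was to be run with at least 3 plates of 5 or more cells per class, and only 2 qualified. With at least 3 cells per class, control day 1 (91 cells with Kit, 3 without) could be added. On the summed counts of the 3 plates, with plate as a block, edgeR's quasi-likelihood test called 0 of 16855 genes after Benjamini-Hochberg adjustment at 0.05, with a smallest adjusted p of 0.49 and 1499 genes at an unadjusted p under 0.05. DESeq2 on the same sums called 448 genes higher and 188 lower with Kit. For Alas2 the log2 fold change was -2.27 with an adjusted p of 0.49 in edgeR and 4.24e-05 in DESeq2. For Hba-a1 it was -1.52, with 0.49 in edgeR and 2.01e-07 in DESeq2, and for Myb 3.27, with 0.49 in edgeR and 0.00783 in DESeq2. Both genes of ribosome production, Ncl (0.79) and Npm1 (0.90), missed the threshold in DESeq2 as well, with adjusted p of 0.117 and 0.116. So did Slc4a1 (-1.91, DESeq2 adjusted p 0.442), Cish (-1.37, 0.0762), Prdx2 (-0.74, 0.202), Alas1 (2.56, 0.284) and Icam2 (2.01, 0.447). The calls thus differed between the tools, and the plates differ in day and treatment. That no litters or cultures are named means that p-values measure only the spread between these plates.

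**Figure D5:**
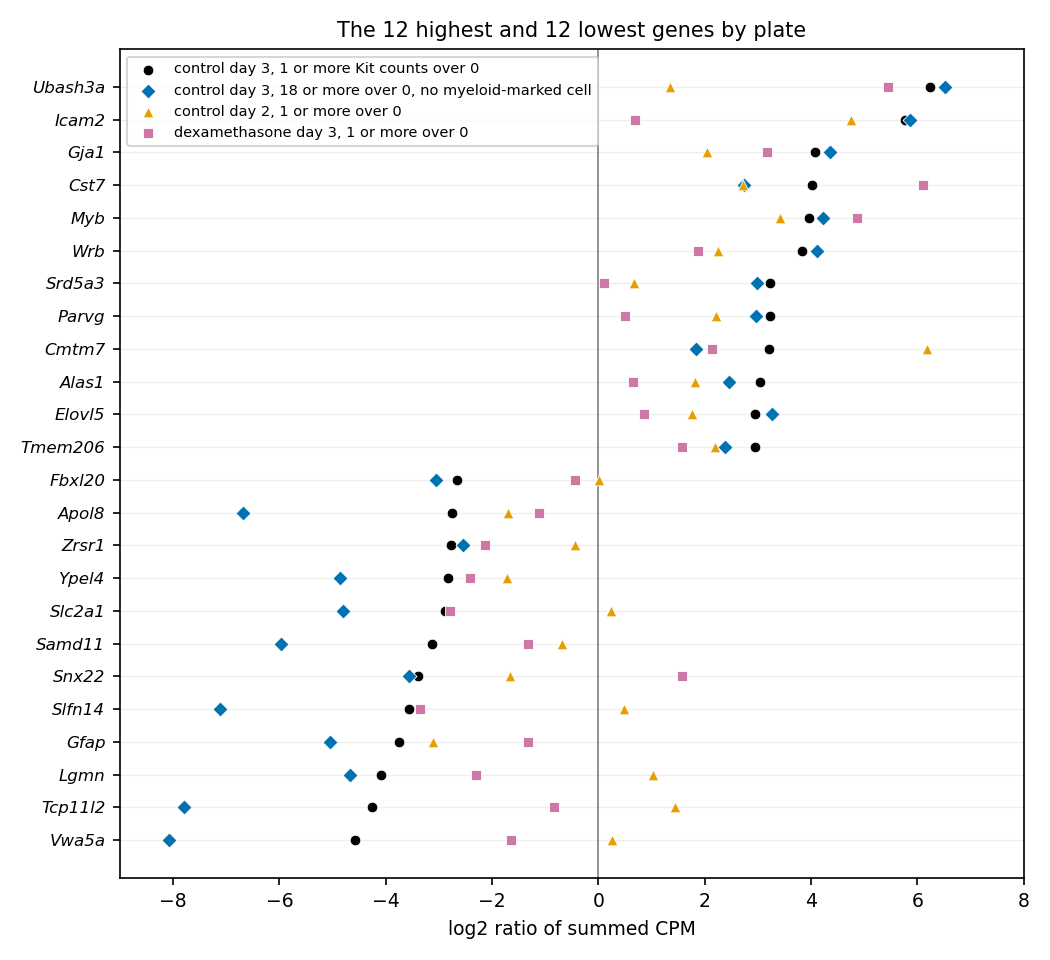
log2 ratio of summed CPM (x axis) for the 12 highest and 12 lowest genes of control day 3 (rows): cells with over cells without a Kit count on control day 3 (circles), control day 2 (triangles) and dexamethasone day 3 (squares), and Kit-high cells without neutrophil or monocyte genes over cells without Kit on control day 3 (diamonds). The 12 highest genes are above 0 in all 4, whereas the lowest genes scatter around 0 on control day 2.

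Kit itself stood at different levels over the plates. The share of cells with a Kit count was 96.8% on control day 1, 78.1% on control day 2 and 48.4% on control day 3, and 100%, 100% and 94.7% on the dexamethasone plates. Summed Kit was at 319, 133 and 47.6 CPM on the control plates and 508, 761 and 279 CPM with dexamethasone. Each of these is a single plate. In such sums fewer cells with Kit and less Kit RNA per cell cannot be told apart, but counts per cell were at hand. At least 10 Kit counts were held by 93.6%, 47.9% and 25.8% of cells on the control plates. With dexamethasone the shares were 96.8%, 98.9% and 80.9%. Median Kit counts per cell were 224, 4.5 and 0 in control and 533, 684 and 203.5 with dexamethasone. On control day 3 the 24 Kit-high cells ran from 12.5 to 486 CPM, with a median of 128.6 CPM.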

How the data were processed

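Counts per gene were analysed in single cells from 6 plates. The authors deposited raw whole-number counts of genes by wells, made with STAR 2.4, featureCounts and the genome build GRCm38, per the submitters' processing notes. The sources used here name no annotation release, strandedness or rule for reads with several matches, so reads of antisense, overlapping or near-identical genes may have been exchanged. Of 576 value columns 575 matched a well by name, and 1 that did not was not used. An empty header cell was dropped so that names and columns align. No row lacked a gene identifier.

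Wells with at least 50000 counts, at least 1500 genes and at most 20% mitochondrially encoded counts were kept as cells. Doublets were not called, because a sorter filled the wells. Counts were summed over the cells of each Kit class, scaled to CPM and compared as log2 ratios with 0.5 CPM added. Genes with a mean of at least 20 CPM were compared, and 2-fold was the limit counted. Cells of 1 plate are not replicates, so no p-value was computed for control day 3. The sums of 3 other plates were tested with edgeR 4.0.16 and DESeq2 1.42.0 in R 4.3.3. The edgeR test and the ratios were run on simulated sums, with an even spread set in advance for edgeR and counting error only for the ratios. That checks the code, and cannot show how reliable the calls are on these plates. Intervals are exact at 95% confidence and cover counting error only, since a count is a read.

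The members and the 22 gene lists were chosen with earlier results of these data known. The genes named are the 12 with the highest and the 12 with the lowest ratio among those with a count in at least 25% of the cells of the higher class and no cell holding over 25% of its counts, and in each list the 2 most abundant members and those with the highest and lowest ratio from 5 CPM. Other members of the lists named as examples were chosen after their values were seen. Promoter windows are RefSeq's for GRCm38.p6, and all 3 genes looked up were found. The alternatives changed thinning, the Kit limit, the weighting of cells, the scaling, the filters and the cells left out.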

Additional observations from a re-analysis of the deposited data

Results flagged for a closer look

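Among the named genes, 7 had a log2 ratio of cells with over cells without a Kit count that was past 2-fold on control day 3 and past 2-fold in the opposite direction on control day 2. Of the 12 genes with the lowest ratios, Tcp11l2 had 1.45 on control day 2 and -4.27 on control day 3, and Lgmn had 1.03 and -4.10. Of the list members, Eda2r had 2.89 on control day 2 and -3.37 on control day 3. Xpo7 had 1.28 and -3.13, Hbb-bh1 1.89 and -3.63, Mxd4 3.06 and -1.46, and Itgb3 1.65 and -1.82. On control day 3 the mean of both classes was under 20 CPM for Hbb-bh1, Mxd4 and Itgb3. These differences were not tested, since each day has 1 plate, and on control day 2 the class without Kit held 21 cells with 19738439 counts in all.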

How the results depend on the processing

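Recounts of the genes at least 2-fold higher and lower with Kit, 779 and 469, and of those with the same sign on other plates stayed within 1.5 times in 22 of 34 cases. The 2 numbers were 1302 and 782 for Kit-high cells against none, 1171 and 773 for them without the marked cells, and the first was 452 for Kit-low cells. With at least 10 against under 10 Kit counts 710 genes were lower. TMM gave 467 and 740, a mean CPM of at least 5 gave 1599 and 824, and at least 100 gave 138 and 195. The cause of these changes beyond the number of genes and cells compared was not tested. Leaving out cells with markers of any other type took out 20 of 24 Kit-high and 9 of 21 Kit-low cells. Without cells with markers of any other type (16 cells with and 27 without Kit left, with 44 cells of both classes marked by the megakaryocyte list), the ratio turned or came to 0, among ratios and medians of at least 2-fold (here and in what follows), for Ms4a2 (-0.25), Nkg7 (0.00), Egln3 (-0.59), Bcl2 (-0.65), Cd79b (-0.088), Hdc (-0.25), Pmaip1 (-0.47), Lyz2 (-0.94), Itgb3 (0.043) and Tek (0.043), and for the median of the lists neutrophil and monocyte markers (-0.11) and mast cell and basophil markers (-0.25). Of those under 2-fold, Add3 (-0.71), Cdkn1a (0.046), Ccng1 (0.37), Itga2b (0.061) and the medians for early progenitor (-0.33), G2 and M phase (0.0080), BCL2 family (-0.060) and megakaryocyte genes (0.061) turned there as well. Without the cell with most counts of each gene, it did so for Lyz2 (-3.14) and Mxd4 (0.052). Without cells with neutrophil, macrophage, mast or lymphoid markers, it did so for Ngp (-0.11), Nkg7 (0.00), Egln3 (-0.41), Cd79b (-0.061), Hdc (-2.29), Lyz2 (-0.55) and Itgb3 (0.093), and for the median of the lists neutrophil and monocyte markers (-0.21) and mast cell and basophil markers (-2.29). Without the 6 marked cells, it did so for Egln3 (-0.46), Cd79b (-0.0063) and Hdc (-2.23), and for the median of the list mast cell and basophil markers (-2.23). For Kit-high cells without the marked ones, here against the 47 unmarked cells without Kit, it did so for Ngp (-0.86), Mpo (-0.76), Nkg7 (0.00), Egln3 (-0.38), Cd79b (-0.0078), Hdc (-1.92) and Lyz2 (-0.94), and for the median of the lists neutrophil and monocyte markers (-0.68) and mast cell and basophil markers (-1.92). For Kit-low cells, it did so for Ms4a2 (-0.19), Egln3 (-0.86), Cd79b (-0.0027), Hdc (-2.61), Pmaip1 (-1.23) and Lyz2 (-5.07), and for the median of the lists neutrophil and monocyte markers (-0.21) and mast cell and basophil markers (-2.61). The cause was not tested further than by leaving those cells out. The 4 alternatives about marked cells and Kit-low cells were chosen after seeing the data. No paired analysis was possible because wells that share a number are separate cells on different plates, and the day 3 comparison lies within 1 plate. The test over other plates was not run as planned. In its form with 3 plates and no filter on low counts edgeR called 0 genes, with 1651 at an unadjusted p under 0.05. Size factors of DESeq2 in edgeR, leaving out each plate and leaving out cells with other markers were not run for it. A single plate, 45 and 48 cells and reads without molecular identifiers limit every value. At 1 to 3 reads the Kit class of a cell is uncertain.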
